A study of Mus musculus with 6 samples.

Results

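Endothelial cell genes, 38 in all, which mark the cells that line blood vessels or take part in vessel growth, were followed in primary mouse heart cell cultures that did or did not express the M90I variant of RIT1. They were taken by name from a list of endothelial identity, angiogenic tip and capillary genes, chosen with earlier results of these data known. All 38 were found among the 54532 genes of the deposited table. The list was divided by known role into 20 identity and junction genes, 5 receptor tyrosine kinases, 6 transcription factors, 5 angiogenic tip and apelin genes and 2 genes of capillary lipid uptake.

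RNA-seq was performed on primary cardiomyocytes from neonatal mouse heart. All cultures came from cells with a Rit1 locus that Cre can recombine, and each was infected on day 3 after isolation. The AdGFP group (3 samples) received the GFP control adenovirus and is labelled Rit1 +/+. The AdCre group (3 samples) received the Cre Recombinase adenovirus, which encodes GFP-Cre, and is labelled Rit1 M90I/+. RIT1 is a GTPase related to RAS, and M90I is a variant found in Noonan syndrome. No sample was of wild-type cells given AdCre, and effects of the variant and of Cre cannot be told apart here. By the study's methods, cells digested from neonatal hearts were pooled and first left on plastic, and only those that had not attached were seeded on laminin, with no sorting of cell types stated. The labels number 3 biological replicates in each group.

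Endothelial cells line every vessel and the inner surface of the heart, and outnumber most other non-muscle cells of the myocardium. They are held together by VE-cadherin and PECAM1, read vascular endothelial growth factor (VEGF) and angiopoietin through their own receptor tyrosine kinases, and keep their identity through ETS and SOX factors. At a sprout, a tip cell is selected by DLL4 and Notch and makes ESM1, angiopoietin 2 and apelin, while capillary cells of the heart take up lipid for the muscle beside them.

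The comparison of AdCre with AdGFP asks which transcripts differ when M90I is expressed, and here whether the classes of endothelial genes moved together. Levels are in FPKM, a level per length of exon and per depth of sequencing, so that they can be set beside each other between genes. Fold changes are differences of log2(FPKM + 0.1), AdCre minus AdGFP. Each gene was tested in limma across the 13794 genes whose mean reached 0.5 FPKM, and is called at a Benjamini-Hochberg adjusted p under 0.05. Same-numbered samples deviated together (r of 0.568, 0.268 and 0.506 across genes), so a fit with the replicate number as a block is given beside the fit without it. With 3 samples against 3, the smallest p an exact permutation test of a single gene can give is 0.1.

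The reads recovered from the FPKM steps, summed over genes, came to between 25.3 and 32.4 M (megareads) in a sample. All 38 members were detected in every sample, with 31 to 11344 reads each, and all 38 passed the filter. A group mean above 10 FPKM was reached by 11 of them, and 8 had both means under 2 FPKM. The cultures are labelled as cardiac myocytes, and the 8 cardiomyocyte markers summed to between 2775 and 7170 FPKM in a sample. The 38 endothelial genes summed to between 260 and 419 FPKM. Pecam1, Cdh5 and Tie1, which together define endothelial cells, were each above 3 FPKM in every sample. In bulk RNA, fewer cells of a type and less RNA per cell cannot be told apart.

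**Figure D1:**
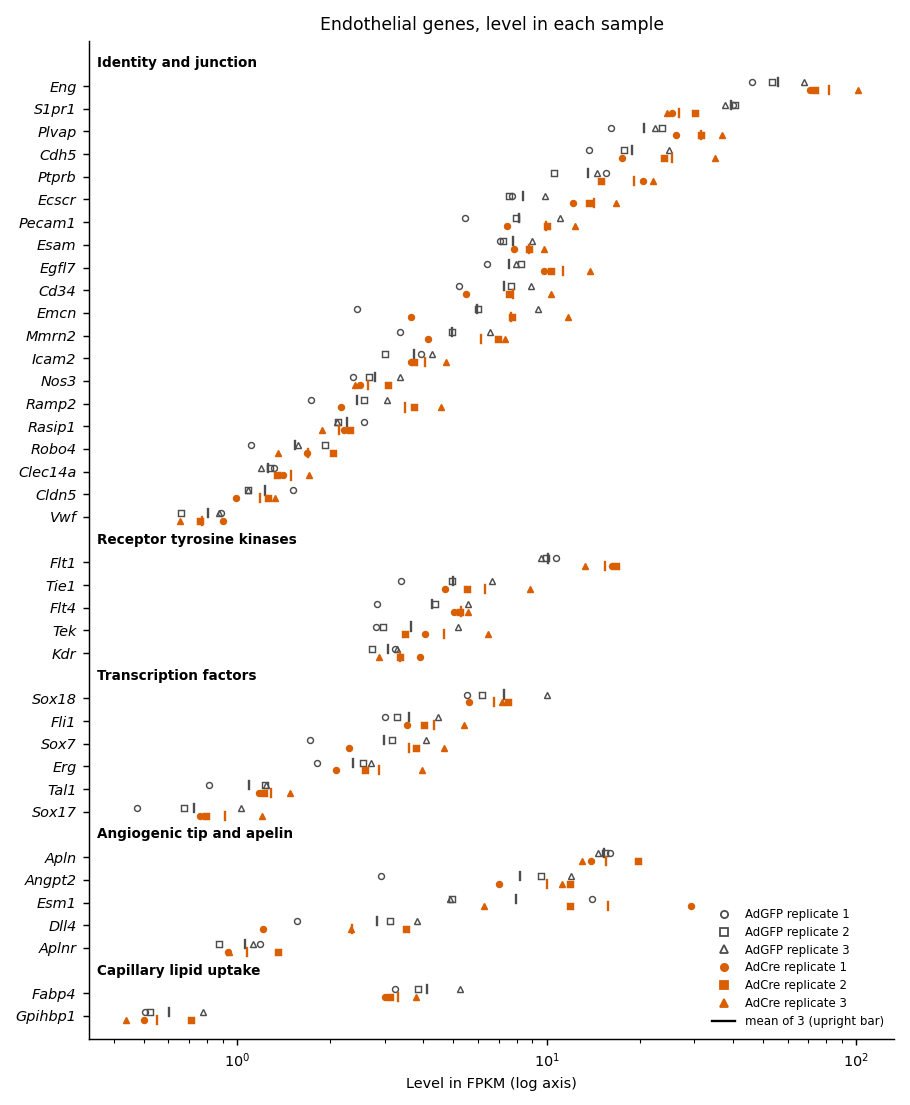
Level of each of the 38 endothelial genes in every sample, in FPKM on a log axis, with the genes grouped by role and ordered by their AdGFP mean. Symbols mark the 3 replicates of AdGFP (open, grey) and AdCre (filled, orange), and upright bars the group means; Eng was the highest in both groups and Gpihbp1 the lowest.

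To show the control sequence of genes that changed, the stretch from 250 to 11 bases before a RefSeq transcription start (GRCm38.p6) is printed for the 4 members that were called with the replicate as a block and had an entry. Capitals mark the motif CNGGAAG, a form of the site bound by ETS factors such as ERG and FLI1, on either strand. Egfl7 has several RefSeq starts, and the stretches before 2 of them, those with no exon base, are shown. Flt1 (chr5:147726022-147726261, minus strand) and the upstream stretch of Egfl7 (chr2:26583615-26583854, plus strand, in an intron of the longer transcripts) hold the motif. The downstream stretch of Egfl7 (chr2:26586386-26586625, plus strand, also intronic), Eng (chr2:32646345-32646584, plus strand) and Esm1 (chr13:113209409-113209648, plus strand) do not hold these letters.
Flt1: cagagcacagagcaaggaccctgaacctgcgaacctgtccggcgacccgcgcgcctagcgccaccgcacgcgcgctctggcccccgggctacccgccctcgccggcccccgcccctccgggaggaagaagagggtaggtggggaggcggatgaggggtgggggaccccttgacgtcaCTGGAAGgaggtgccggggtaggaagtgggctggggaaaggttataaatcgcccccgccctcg
Egfl7 upstream: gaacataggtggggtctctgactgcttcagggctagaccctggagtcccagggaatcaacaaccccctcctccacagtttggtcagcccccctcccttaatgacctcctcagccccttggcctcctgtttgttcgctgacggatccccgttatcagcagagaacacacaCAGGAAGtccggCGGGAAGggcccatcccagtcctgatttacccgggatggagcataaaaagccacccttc
Egfl7 downstream: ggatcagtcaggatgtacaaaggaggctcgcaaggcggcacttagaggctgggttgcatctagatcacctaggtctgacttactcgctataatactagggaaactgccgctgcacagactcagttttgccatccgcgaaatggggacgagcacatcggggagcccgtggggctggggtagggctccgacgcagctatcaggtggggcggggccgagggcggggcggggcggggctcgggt
Eng: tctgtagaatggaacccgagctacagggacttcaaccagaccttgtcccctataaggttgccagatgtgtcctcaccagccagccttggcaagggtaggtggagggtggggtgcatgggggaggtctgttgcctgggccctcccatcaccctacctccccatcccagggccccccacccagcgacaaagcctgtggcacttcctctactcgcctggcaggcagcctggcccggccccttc
Esm1: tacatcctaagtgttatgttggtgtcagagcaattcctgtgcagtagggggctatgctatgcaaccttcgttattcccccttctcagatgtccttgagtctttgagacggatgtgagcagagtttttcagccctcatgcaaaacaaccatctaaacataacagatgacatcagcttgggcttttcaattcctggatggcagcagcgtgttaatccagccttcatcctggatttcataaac
Over the whole windows, from 250 bases before to 50 after each start, 18 of the 38 members had 23 entries. The motif was found in 14 of these 23 windows (60.9%), which belong to 13 genes, and in 31.9% of all 32851 windows of that length. Its shorter core GGAA, which lies inside it, was in 95.7% of the windows of members and 96.0% of all. The SOX motif AACAAT was in 3 of 23 windows (13.0%) and 10.7% of all. A match in letters is a description, and the motif was chosen after several were looked at.

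More of the endothelial genes were higher in AdCre than lower. Of the 38, 28 had a fold change above 0 and 10 below, where 49.6% of all genes tested were above 0. Their median log2 fold change was 0.25, beside -0.0022 over all genes tested. The median stayed above 0 in each of the 3 pairs, at 0.29, 0.28 and 0.20. In all 3 pairs, 20 members were higher in AdCre (52.6%, where 23.9% of all genes were) and 2, S1pr1 and Fabp4, were lower (24.5% of all genes). The other 16 went both ways. Leaving out a single sample keeps the sample of the same number in the other group. The median was then smaller without AdGFP replicate 1 (0.090) or AdCre replicate 3 (0.11), and larger without AdGFP replicate 3 (0.39). With both samples of a number left out, it was 0.23 without replicate 1, 0.29 without replicate 2 and 0.29 without replicate 3.

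The spread between replicates was wide beside these differences. No member was called in the fit without the block, where 1 gene in the whole table was (0.00725%), nor with voom on the recovered reads. At an unadjusted p under 0.05 there were 6 members higher (15.8%, where 4.71% of all genes were) and 1 lower (5.45% of all genes). The groups did not overlap for 6 members that were higher, namely Eng, Plvap, Egfl7, Ecscr, Clec14a and Flt1 (15.8%, beside 7.36% of all genes), and for 1 that was lower, S1pr1 (8.02% of all genes). Leaving out 1 sample moved the log2 fold change by over 1.5 times or past 0 for 32 of the 38, all but Eng, Plvap, Egfl7, Ecscr, Flt1 and S1pr1.

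With the replicate as a block, 8 members were called higher in AdCre (21.1%, where 2.64% of all genes were) and 1 lower (3.51% of all genes). The 8 were Ecscr, Eng, Plvap, Flt1, Ptprb, Cdh5, Egfl7 and Esm1, and the lower one was S1pr1. The standard error was smaller with the block for all 38 members, at a median ratio of 0.57. The 9 calls rested on the samples and on the model. None of the 38 was called without the samples of replicate 2, when 149 genes of the whole table passed, nor without those of replicate 3, when 1 gene was. None was called either when eBayes was run without a trend, or with no filter on low values. Between 12 and 18 of the 38 had an unadjusted p under 0.05 in these 4 blocked fits (31.6% to 47.4%, where 14.8% to 22.6% of all genes did). With voom on the recovered reads, the block called 12.6% of all genes and 13 members (34.2%), namely the 9 and, as higher, Pecam1, Emcn, Ramp2 and Tie1.

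**Figure D2:**
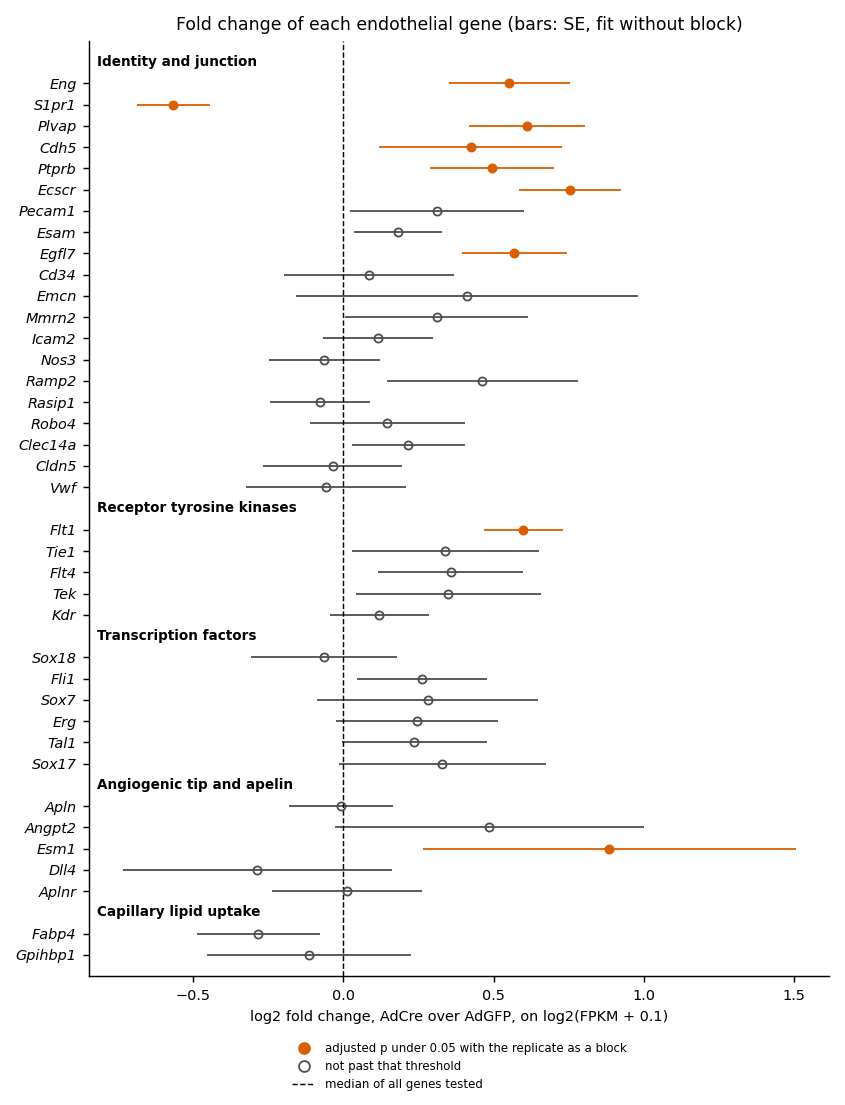
Log2 fold change of each endothelial gene (AdCre over AdGFP, on log2(FPKM + 0.1)), with bars of 1 standard error from the fit without a block. Filled orange points are the 9 genes with an adjusted p under 0.05 with the replicate as a block, 8 of them to the right of the median of all genes (dashed line) and S1pr1 to its left.

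Among the identity and junction genes, 15 of 20 were above 0, with a median log2 fold change of 0.26, and with the block 6 were called higher (30.0%, beside 2.64% of all genes) and 1 lower (3.51% of all genes). That median was 0.12 when AdGFP replicate 1 was left out, 0.13 when AdCre replicate 3 was and 0.41 when AdGFP replicate 3 was. Eng (ENSMUSG00000026814, GRCm38 chromosome 2, 32646595 to 32682669) encodes endoglin, a co-receptor for BMP9 and TGF-beta that is also made by stromal cells. Its level was 45.9, 53.4 and 68.0 FPKM in AdGFP replicates 1 to 3 and 70.9, 73.5 and 101 FPKM in AdCre replicates 1 to 3. No AdGFP sample reached the lowest AdCre sample, and Eng had the highest level of the 38 genes. The log2 fold change came to 0.55 ± 0.20 (SE), with a limma adjusted p of 0.426, or 0.0232 with the block (range 0.00156 to 0.112 over the alternatives of the blocked fit).

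Plvap (ENSMUSG00000034845, chromosome 8, 71497765 to 71511752) makes the diaphragms of endothelial fenestrae and caveolae. It stood at 16.1, 23.6 and 22.4 FPKM in AdGFP and 26.2, 31.6 and 36.8 FPKM in AdCre. The groups did not overlap, and the means were 20.7 ± 4.03 and 31.5 ± 5.32 FPKM (SD, n = 3). The log2 fold change was 0.61 ± 0.19 (SE), with a limma adjusted p of 0.365, or 0.0271 with the block (0.00310 to 0.130 over its alternatives).

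Ecscr (ENSMUSG00000073599) is an endothelial surface protein that takes part in cell movement. In AdGFP it was at 7.73, 7.56 and 9.88 FPKM, and in AdCre at 12.1, 13.7 and 16.8 FPKM. The lowest AdCre sample was above the highest AdGFP sample. It had the largest fold change of the identity class, 0.75 ± 0.17 (limma adjusted p = 0.252), and the smallest p of the 38 genes with the block (0.0165, range 0.00241 to 0.0934). Its reads did not come out whole from the FPKM steps, unlike those of the other 37 genes.

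Egfl7 (ENSMUSG00000026921, chromosome 2, 26580014 to 26593120), a secreted matrix protein of growing vessels that hosts miR-126 in an intron, was at 6.44, 8.25 and 7.998 FPKM in AdGFP and 9.83, 10.3 and 13.8 FPKM in AdCre. These samples did not overlap, although AdCre replicate 3 stood apart at the top. The log2 fold change was 0.57 ± 0.17 (limma adjusted p = 0.344, with the block 0.0458, range 0.00806 to 0.180). Exons of other genes on the same strand cover 9.41% of its exon length.

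Cdh5 (ENSMUSG00000031871, chromosome 8, 104101625 to 104144511) is VE-cadherin, the adhesion protein of endothelial junctions. Its levels were 13.7, 17.8 and 24.9 FPKM in AdGFP and 17.5, 24.0 and 35.0 FPKM in AdCre. The groups overlapped, since AdCre replicate 1 was below AdGFP replicates 2 and 3, but each AdCre sample was above the AdGFP sample of its own number. The pair differences were 0.36, 0.43 and 0.49 on the log2 scale, and the limma adjusted p was 0.715 without the block and 0.0365 with it (range 0.00548 to 0.163). With a sample left out, the fold change of 0.42 ran from 0.17 without AdCre replicate 3 to 0.66 without AdCre replicate 1.

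Ptprb (ENSMUSG00000020154, chromosome 10, 116275523 to 116389535) is VE-PTP, a phosphatase that acts on TIE2 and on VE-cadherin. It was at 15.5, 10.6 and 14.6 FPKM in AdGFP and 20.4, 14.998 and 22.0 FPKM in AdCre. Here replicate 2 was the lowest of both groups, and the groups overlapped. Its pair differences of 0.39, 0.50 and 0.59 gave an adjusted p in limma of 0.0312 with the block (range 0.00234 to 0.144), and 0.487 without it. Their mean of 0.49 ran from 0.33 without AdGFP replicate 2 to 0.66 without AdCre replicate 2.

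S1pr1 (ENSMUSG00000045092, chromosome 3, 115710433 to 115715072), the receptor for sphingosine 1-phosphate that steadies endothelial junctions and is also made by cardiomyocytes, went the other way. It was at 40.1, 40.6 and 37.8 FPKM in AdGFP and at 25.5, 30.2 and 24.5 FPKM in AdCre. Every AdCre sample was below every AdGFP sample, and the 3 AdGFP samples lay close together. S1pr1 fell by 0.57 on the log2 scale (SE 0.12, limma adjusted p = 0.241, with the block 0.0269, range 0.00484 to 0.124). The 8 cardiomyocyte markers were below 0 as well, with a median of -0.75, and their part in the S1pr1 result was not tested.

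**Figure D3:**
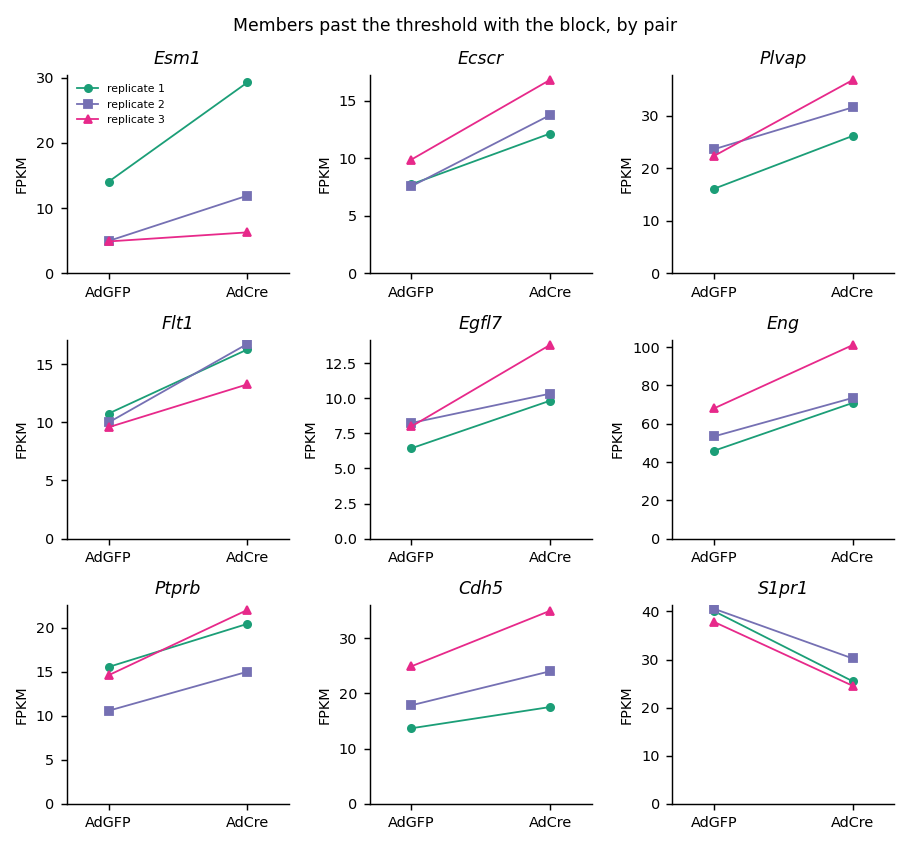
Level in FPKM of the 9 endothelial genes called with the replicate as a block, in AdGFP and AdCre, with a line joining the samples of the same replicate number (each vertical axis starts at 0). All 3 lines rise for 8 genes and fall for S1pr1, and the Esm1 line of replicate 1 lies far above the other two.

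The other 13 identity and junction genes were not called with or without the block as tested here. Their log2 fold changes ran from -0.077 for Rasip1, an effector of RAP1 in lumen formation, to 0.46 for Ramp2, the partner of the adrenomedullin receptor. Pecam1, the adhesion protein also known as CD31, was at 5.44, 7.95 and 11.05 FPKM in AdGFP and 7.43, 10.02 and 12.4 FPKM in AdCre. It was higher in all 3 pairs, with overlapping groups and a fold change of 0.31 ± 0.29, which ran from 0.054 without AdGFP replicate 1 to 0.56 without AdGFP replicate 3. Emcn, a sialomucin of capillaries and veins, varied widely between replicates, at 2.44, 5.9996 and 9.40 FPKM in AdGFP and 3.66, 7.72 and 11.7 FPKM in AdCre, and was also higher in all 3 pairs. Its fold change of 0.41 became -0.12 without AdGFP replicate 1.

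Mmrn2, a matrix protein that binds CLEC14A, and Esam, a tight junction adhesion protein, were higher in every pair, at 0.31 and 0.18. Without 1 sample Mmrn2 ran from 0.063 without AdGFP replicate 1 to 0.57 without AdCre replicate 1, and Esam from 0.10 without AdCre replicate 3 to 0.29 without AdGFP replicate 3. Clec14a itself was at 1.32, 1.28 and 1.20 FPKM in AdGFP and 1.41, 1.35 and 1.71 FPKM in AdCre. Its groups did not overlap, by a margin of hundredths of an FPKM, and the log2 fold change was 0.22 ± 0.19 (limma adjusted p = 0.784), which ran from 0.12 without AdCre replicate 3 to 0.28 without AdCre replicate 2. Fold changes of Cldn5, the claudin of tight junctions, Vwf, the clotting factor stored by endothelial cells, and Nos3, the endothelial nitric oxide synthase, were between -0.064 and -0.035. Those 3 genes and Rasip1 had positive values after rescaling to TPM, so they have no settled direction. Cd34, Icam2 and Robo4, which are surface proteins, had values of 0.086, 0.12 and 0.15. Reads for Ramp2 and Rasip1, as for Egfl7 above, may be shared with a neighbour. Exons of Vps25 on the same strand overlap 33.4% of the exon length of Ramp2, and those of Izumo1 overlap 20.4% of Rasip1, while antisense genes overlap 32.3% of Nos3, 22.5% of Rasip1, 16.85% of Sox17 and 5.56% of Dll4.

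All 5 receptor tyrosine kinases were above 0 (49.6% of all genes tested were), with a median log2 fold change of 0.35. With the block, 1 of the 5 was called higher (2.64% of all genes were). Flt1 (ENSMUSG00000029648, chromosome 5, 147561604 to 147726011) is VEGF receptor 1, which also exists as a soluble form that traps VEGF-A. Its level was 10.8, 9.99 and 9.58 FPKM in AdGFP and 16.3, 16.8 and 13.3 FPKM in AdCre. The groups stood well apart, with means of 10.1 ± 0.599 and 15.4 ± 1.89 FPKM (SD, n = 3). The log2 fold change was 0.60 ± 0.13, with a limma adjusted p of 0.244, or 0.0271 with the block (range 0.00116 to 0.108). A gene-level value does not separate the soluble from the membrane form.

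Kdr, VEGF receptor 2 and the main receptor for VEGF-A signaling, was at 3.24, 2.72 and 3.28 FPKM in AdGFP and 3.90, 3.35 and 2.87 FPKM in AdCre. The groups overlapped, pair 3 went down, and the fold change was 0.12 ± 0.16, which ran from 0.013 without AdCre replicate 1 to 0.23 without AdCre replicate 3. Flt4, VEGF receptor 3 and the receptor for VEGF-C and VEGF-D, was at 2.84, 4.36 and 5.60 FPKM in AdGFP and 5.04, 5.27 and 5.57 FPKM in AdCre. The AdGFP samples spread widely while the AdCre samples lay close together, and the pair differences were 0.81, 0.27 and -0.0065. Their mean of 0.36 became 0.097 without AdGFP replicate 1.

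The angiopoietin receptor and its partner had like values. Tek, which encodes TIE2, was at 2.82, 2.97 and 5.18 FPKM in AdGFP and 4.06, 3.48 and 6.46 FPKM in AdCre. Tie1, its partner, was at 3.38, 4.96 and 6.67 FPKM in AdGFP and 4.70, 5.53 and 8.83 FPKM in AdCre. Both were higher in all 3 pairs with overlapping groups, and neither was called (0.35 ± 0.31 and 0.34 ± 0.31, with limma adjusted p = 0.120 and 0.117 with the block). Without AdCre replicate 3 the fold changes were 0.095 for Tek and 0.078 for Tie1, and without AdGFP replicate 3 they were 0.62 and 0.57. Leaving out AdGFP replicate 1 put the median of the class at 0.16, leaving out AdCre replicate 3 at 0.23, and leaving out AdGFP replicate 3 at 0.57.

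Of the 6 transcription factors, 5 were above 0, with a median of 0.25, and none was called in either fit or with voom. The blocked fit gave 2 of the 6 a p under 0.05 before adjustment, where 24.7% of all genes had one. Fli1, an ETS factor also made by blood cells, was at 3.01, 3.28 and 4.47 FPKM in AdGFP and 3.54, 4.02 and 5.40 FPKM in AdCre. It was higher in each pair by a similar amount (0.23, 0.29 and 0.27), and the groups overlapped. With a sample left out, its fold change of 0.26 ran from 0.092 without AdCre replicate 3 to 0.43 without AdGFP replicate 3. Erg, the ETS factor most specific to endothelium, was at 1.82, 2.56 and 2.72 FPKM in AdGFP and 2.09, 2.59 and 3.96 FPKM in AdCre, with the highest value in AdCre replicate 3. The pair differences of Erg were 0.19, 0.017 and 0.53. Its fold change of 0.24 ± 0.27 became -0.0025 without AdCre replicate 3, with AdGFP replicate 3 kept in.

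The SOXF factors specify arterial and lymphatic endothelium. Sox17 was at 0.475, 0.678 and 1.03 FPKM in AdGFP and 0.759, 0.795 and 1.20 FPKM in AdCre, higher in all 3 pairs at a low level (0.33 ± 0.35, which ran from 0.095 without AdGFP replicate 1 to 0.58 without AdGFP replicate 3). Sox7 was likewise higher in all 3 pairs (0.28 ± 0.37, but -0.057 without AdGFP replicate 1), while Sox18 was at -0.064 ± 0.24 and turned positive after rescaling to TPM. Tal1, a factor of blood and endothelial precursors, was at 0.813, 1.23 and 1.24 FPKM in AdGFP and 1.18, 1.22 and 1.48 FPKM in AdCre, with overlapping groups, and its fold change of 0.24 was 0.053 without AdGFP replicate 1. Leaving out AdGFP replicate 1 put the median of the class at 0.063 and leaving out AdCre replicate 3 at 0.079, while it was 0.42 when AdCre replicate 1 was left out and 0.39 when AdGFP replicate 3 was.

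The angiogenic tip and apelin genes did not share a direction, with 3 above 0, 2 below and a median of 0.01. Esm1 (ENSMUSG00000042379, chromosome 13, 113209659 to 113218098), a secreted proteoglycan of tip cells, had the largest fold change of the 38 genes. Its level was 14.05, 4.96 and 4.89 FPKM in AdGFP and 29.3, 11.9 and 6.28 FPKM in AdCre. Replicate 1 was the highest in both groups, unlike most of the list, and the groups overlapped. The pair differences of 1.05, 1.25 and 0.35 averaged 0.88. That value ran from 0.30 without AdCre replicate 1, below that of Ecscr, to 1.403 without AdCre replicate 3. Without the block the standard error was 0.62 (limma adjusted p = 0.709), and it shrank to 0.18 with the block (limma adjusted p = 0.0481, range 0.00260 to 0.155).

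Angpt2, the angiopoietin that loosens vessels for remodelling, was at 2.92, 9.59 and 12.04 FPKM in AdGFP and 7.04, 11.9 and 11.2 FPKM in AdCre. AdGFP replicate 1 was far below the other 5 samples, and without it the fold change of 0.49 became -0.13. Dll4, the Notch ligand of tip cells, was at 1.57, 3.12 and 3.81 FPKM in AdGFP and 1.22, 3.52 and 2.33 FPKM in AdCre. It was lower in 2 of 3 pairs, with a fold change of -0.29 ± 0.45, which was 0.11 without AdCre replicate 1.

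Aplnr, the apelin receptor, was at 1.19, 0.874 and 1.13 FPKM in AdGFP and 0.937, 1.36 and 0.946 FPKM in AdCre, and Apln, its ligand, was at a higher level, 16.1, 15.4 and 14.6 FPKM in AdGFP and 13.9, 19.7 and 12.97 FPKM in AdCre. Both were lower in pairs 1 and 3 and higher in pair 2, with fold changes of 0.011 and -0.0077. The median of the class fell below 0 when AdCre replicate 2 (-0.15) or AdGFP replicate 2 (-0.0063) was left out.

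Both genes of capillary lipid uptake were below 0, with a median of -0.20, and neither was called or had an unadjusted p under 0.05 in either fit. Fabp4, a fatty acid binding protein of capillaries that fat cells also make, was at 3.24, 3.85 and 5.27 FPKM in AdGFP and 3.02, 3.13 and 3.79 FPKM in AdCre. It was lower in all 3 pairs (-0.10, -0.29 and -0.46), with overlapping groups and a fold change of -0.28 ± 0.20 (limma adjusted p = 0.721), which ran from -0.44 without AdGFP replicate 1 to -0.095 without AdGFP replicate 3. Gpihbp1, which carries lipoprotein lipase to the capillary surface, had the lowest level of the list, at 0.507, 0.525 and 0.778 FPKM in AdGFP and 0.501, 0.713 and 0.438 FPKM in AdCre, and its pairs went both ways. The 4 fat cell markers summed to at most 0.350 FPKM in a sample, with Lep at 0 in all 6.

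**Figure D4:**
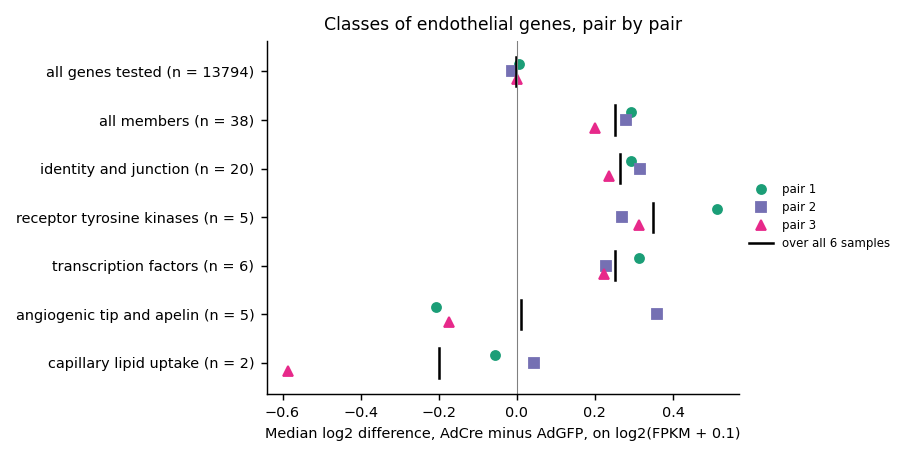
Median log2 difference (AdCre minus AdGFP) over all genes tested, all members and each class, for each pair of same-numbered samples (symbols) and over all 6 samples (black bars). The identity, receptor and transcription factor classes lay above 0 in all 3 pairs, while the tip and lipid classes had pairs on both sides of 0.

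The classes therefore did not all lie on one side. Medians of the identity, receptor and transcription factor classes were above 0 in all 3 pairs, those of the tip and apelin class were -0.21, 0.36 and -0.17, and those of the lipid uptake class were -0.055, 0.045 and -0.58. No test of the difference between classes was made. Leaving out the 10 members that are well known in other cells too (Eng, Cd34, S1pr1, Fli1, Tal1, Fabp4, Ramp2, Angpt2, Nos3 and Vwf) left 28 genes, of which 22 were above 0. Their median was 0.30, and 7 of them were called higher with the block (25.0%, beside 2.64% of all genes). None was called lower (3.51% of all genes), since S1pr1, the only member called lower, was among those left out. Of the 10 left out, 6 were above 0, with a median of 0.16.

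Replicates differed in how much of the endothelial list they held. Of the 38 genes, 25 had their lowest AdGFP value in replicate 1 (65.8%, beside 40.9% of all genes tested), and 25 had their lowest AdCre value there (beside 35.1%). The highest value was in replicate 3 for 25 genes in AdGFP and 24 in AdCre. The sum over the list was 260, 291 and 345 FPKM in AdGFP replicates 1 to 3 and 332, 364 and 419 FPKM in AdCre replicates 1 to 3. The AdCre sum was 1.27, 1.25 and 1.22 times that of AdGFP in the 3 pairs, although the ranges of the groups overlapped.

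Markers of other cells moved beside the list. All 8 cardiomyocyte markers were below 0 (median -0.75, 5 called lower with the block, beside 3.51% of all genes), and their sum went from between 4262 and 7170 FPKM in AdGFP to between 2775 and 4788 FPKM in AdCre. Of 8 fibroblast markers, 7 were below 0 and 3 were called lower with the block (2589 to 4644 FPKM in AdGFP, 2272 to 3324 FPKM in AdCre). The 8 mural markers had 5 above 0 and none called in either fit (797 to 1250 FPKM and 951 to 1166 FPKM).

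Macrophage markers were above 0 for all 7 tested of 8, with C1qb and Lyz2 called higher with the block (2.64% of all genes). Over the alternatives of the blocked fit, the limma adjusted p ran from 0.0251 to 0.130 for C1qb and from 0.00704 to 0.150 for Lyz2. Both were higher in all 3 pairs, but without AdGFP replicate 1 alone their fold changes of 0.50 and 0.51 became -0.12 and -0.30. The sum of the macrophage markers was 49.9, 207 and 271 FPKM in AdGFP and 88.3, 280 and 337 FPKM in AdCre, so that it too was lowest in replicate 1. Platelet markers, 4 tested of 5 and none called in either fit, summed to between 4.95 and 16.6 FPKM in AdGFP and between 6.40 and 25.2 FPKM in AdCre. Of the 5 mesothelial markers, 4 were below 0 and none was called in either fit (91.9 to 196 FPKM in AdGFP, 88.3 to 116 FPKM in AdCre). Red cell markers summed to at most 2.18 FPKM, with Hba-a2 and Hbb-bt at 0 in every sample, and B and T cell markers to at most 1.16 FPKM, with Cd3e at 0. At an unadjusted p under 0.05 with the block there were 1 mural, 2 platelet and 1 mesothelial markers (24.7% of all genes), and with voom and the block 0, 1 and 1 were called (12.6% of all genes). The part of these shifts in the endothelial result was not tested.

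**Figure D5:**
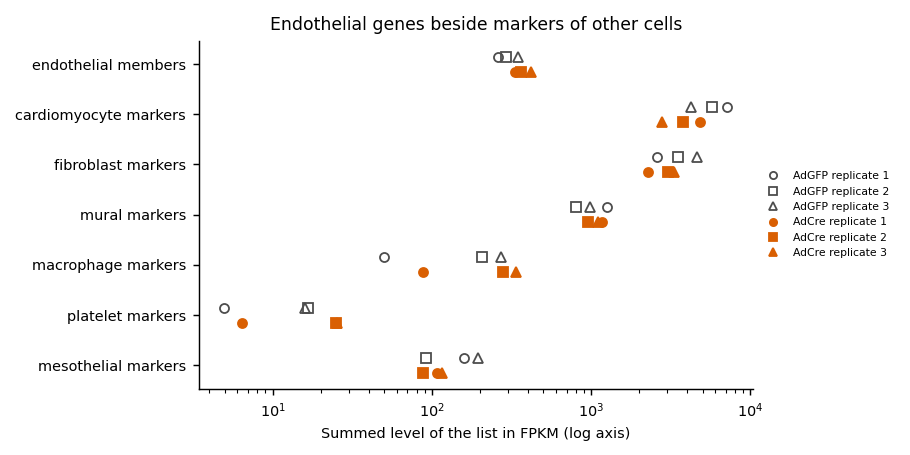
Summed level, in FPKM on a log axis, of the 38 endothelial genes and of marker lists of other cells, with 1 symbol for each sample (open grey, AdGFP; filled orange, AdCre). In each pair the endothelial, macrophage and platelet sums were higher in AdCre, and the cardiomyocyte, fibroblast and mesothelial sums lower.

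Genes that act with the list were read from lists set by role, which were chosen with earlier results of these data known. Of 31 signaling genes, 29 were tested, 17 were above 0 (58.6%, beside 49.6% of all genes), and with the block 3 were called higher (10.3%, beside 2.64%) and 2 lower (3.51% of all genes). Notch1, a receptor for DLL4, was at 2.81, 3.40 and 4.52 FPKM in AdGFP and 5.37, 6.63 and 8.24 FPKM in AdCre. The groups did not overlap, and the log2 fold change was 0.90 ± 0.23 (limma adjusted p = 0.291, with the block 0.0145, range 0.000286 to 0.0798).

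Acvrl1, the type I receptor that works with endoglin, and Gata2, a factor that acts at endothelial genes, were the other genes called higher. Acvrl1 went from 5.69, 7.88 and 10.02 FPKM in AdGFP to 8.09, 9.93 and 13.4 FPKM in AdCre, with overlapping groups (0.42 ± 0.26, limma adjusted p = 0.0491 with the block, range 0.0139 to 0.186). Its fold change ran from 0.20 without AdGFP replicate 1 to 0.61 without AdGFP replicate 3. Gata2 went from 1.20, 0.752 and 1.35 FPKM to 2.54, 1.60 and 2.06 FPKM without overlap (0.87 ± 0.28, limma adjusted p = 0.0474 with the block, range 0.00654 to 0.167).

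The genes called lower were ligands. Vegfb, a ligand of VEGF receptor 1, was at 57.5, 55.6 and 40.0 FPKM in AdGFP and 36.5, 41.7 and 25.8 FPKM in AdCre, lower in all 3 pairs (-0.57 ± 0.22, limma adjusted p = 0.0269 with the block, range 0.00640 to 0.124). Vegfd, a ligand of VEGF receptor 3, was at 10.7, 23.3 and 39.9 FPKM and 5.95, 16.8 and 21.1 FPKM (-0.74 ± 0.60, limma adjusted p = 0.0269 with the block, range 0.00388 to 0.128). It too was lower in all 3 pairs, and the groups overlapped for both genes. With a sample left out, Vegfb ran from -0.73 without AdGFP replicate 3 to -0.37 without AdCre replicate 3, and Vegfd from -1.24 without AdGFP replicate 1 to -0.19 without AdCre replicate 1. Apela and Dll1 were below the filter.

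Of 19 further endothelial genes, 16 were tested, 14 were above 0 (87.5%), and with the block 4 were called higher (25.0%, beside 2.64% of all genes) and 1 lower (3.51% of all genes). Podxl, a sialomucin of the luminal surface that other epithelia also make, was at 6.75, 5.50 and 6.17 FPKM in AdGFP and 19.1, 13.5 and 10.9 FPKM in AdCre (1.19 ± 0.21, limma adjusted p = 0.176, with the block 0.0183, range 0.000432 to 0.0788). Procr, the protein C receptor, was at 13.1, 7.42 and 8.17 FPKM and 19.1, 15.8 and 20.9 FPKM (0.99 ± 0.23, with the block limma adjusted p = 0.0306, range 0.00241 to 0.127). Neither gene had overlapping groups.

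Aqp1, a water channel of capillaries, was at 15.8, 25.1 and 21.2 FPKM in AdGFP and 27.3, 42.7 and 35.8 FPKM in AdCre (0.77 ± 0.23, limma adjusted p = 0.0119 with the block, range 0.000478 to 0.0798). Tm4sf1, a membrane protein of endothelial protrusions, was at 43.1, 40.8 and 57.2 FPKM and 56.8, 56.7 and 87.0 FPKM, with overlapping groups (0.49 ± 0.22, limma adjusted p = 0.0290 with the block, range 0.00249 to 0.132). Its fold change was 0.29 without AdCre replicate 3. The gene called lower was Cd36, a fatty acid transporter of capillaries and of heart muscle, at 25.5, 45.9 and 33.4 FPKM in AdGFP and 12.03, 24.0 and 17.2 FPKM in AdCre (-0.99 ± 0.30, limma adjusted p = 0.00969 with the block, range 0.000339 to 0.0721). It lay on the same side of 0 as Fabp4 and Gpihbp1, and its groups did not overlap.

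The 4 genes of endothelial activation were all above 0 (49.6% of all genes tested were), and 1 was called higher with the block (25.0%, beside 2.64% of all genes). That gene was Icam1, an adhesion protein for leukocytes that many cells make. It was at 3.54, 3.64 and 7.06 FPKM in AdGFP and 6.05, 6.38 and 11.7 FPKM in AdCre, with overlapping groups (0.76 ± 0.35, limma adjusted p = 0.0169 with the block, range 0.00140 to 0.0966). The fold change of Icam1 was 0.46 without AdCre replicate 3. Of 6 lymphatic genes, 3 were tested, and none was called or had an unadjusted p under 0.05 in either fit. Prox1, the factor that sets lymphatic identity and is also made by heart muscle, was at -0.11 ± 0.20, and Lyve1, a hyaluronan receptor, at 0.12 ± 0.39. Both changed sign without a single sample, Prox1 to 0.033 without AdCre replicate 3 and Lyve1 to -0.21 without AdGFP replicate 1. Of 3 endocardial genes, 2 were tested and neither was called, although both were with voom and the block, which called 12.6% of all genes. Nfatc1, a factor of endocardium and valves, was at 2.97, 2.66 and 3.01 FPKM in AdGFP and 4.30, 3.51 and 4.44 FPKM in AdCre (0.48 ± 0.15). Npr3, the natriuretic peptide clearance receptor, was at 5.18, 4.002 and 3.24 FPKM and 1.31, 3.04 and 1.93 FPKM (-1.01 ± 0.32).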

How the data were processed

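Poly-A RNA from 6 cultures was sequenced. The authors deposited 1 table of FPKM per gene and sample, without pooling, and the submitters' processing notes name fastp, STAR 2.5, HTSeq 0.6.1 and mm10. Annotation and strandedness are not given in the sources used here, so overlapping genes may share reads.

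Ensembl IDs were matched to GENCODE M21 (54495 of 54532). FPKM times exon length gave whole reads (within 0.02 read) in every sample for 96.8% of the 28445 genes above 0. Values were tested as log2(FPKM + 0.1), which understates changes of low genes, over the 13794 genes whose mean reached 0.5 FPKM. limma 3.58.1 (R 4.3.3) was run with lmFit and eBayes with an intensity trend, two-sided, with Benjamini-Hochberg adjustment over all genes tested. The procedure was also run on simulated data with the same residual SD for every gene, which cannot check the use of the trend.

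Groups came from the labels, which also number the replicates 1 to 3 and do not define the numbers. Deviations from group means correlated across genes at 0.568, 0.268 and 0.506 for same-numbered samples, and at -0.497 to 0.0364 for others, and on this basis samples of the same number were treated as pairs. The labels call the replicates biological, but name no separate animals, so p-values measure the spread between these samples.

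Alternatives were voom on the recovered reads, the replicate block, omission of each sample, TPM, median centring, eBayes with no trend, pseudocounts of 0.01 and 1, a filter at 1 FPKM and no filter. Leaving out the members also known in other cells was added after the data were seen. Per-sample values are given for members called in either fit and for at most 4 of each class with the smallest p, and for a few others chosen after their values were seen (Pecam1, Emcn, Clec14a, Kdr, Apln). From each pathway list the called genes with the smallest p (at most 5) are named, or the 2 with the smallest p where none was called. Members and lists were chosen with earlier results of these data known. Sequences are from RefSeq (GRCm38.p6), where 18 of 38 members matched by symbol.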

Additional observations from a re-analysis of the deposited data

How the results depend on the processing

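No alternative without the block called any of the 38 endothelial genes, and between 5 and 7 of them had an unadjusted p under 0.05, where 5.65% to 11.8% of all genes did. The replicate block called 9, and 848 of all genes. In that blocked fit 0 members were called with no filter (17 of all genes) or with no trend (0 of all genes), and between 0 and 7 when both samples of a number were left out. It called 13 members with voom on the recovered reads (1741 of all genes), and 8 or 9 under the other alternatives. Of its calls over all genes, 42.9% were rises, against 61.5% in TPM and 57.6% with voom. Without the block the 1 gene called in the whole table became 0 with no filter, 4 with no trend, 3 at a pseudocount of 1 and 0 with voom, and 0 to 2 when a sample was left out.

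The median of the 38 genes stayed above 0 throughout. It was 0.18 at a pseudocount of 1, 0.35 as TPM, 0.32 with voom and 0.090 to 0.39 when a sample was left out. With both samples of a number left out, it was 0.23 to 0.29. The identity class had 0.31 at a mean of at least 1 FPKM, 0.21 at a pseudocount of 1, 0.36 as TPM, 0.33 with voom and 0.12 to 0.41 when a sample was left out. The receptors ran from 0.16 to 0.57 when a sample was left out. The transcription factors had 0.17 at a pseudocount of 1, 0.35 as TPM, 0.32 with voom and 0.063 to 0.42 when a sample was left out. Rescaling to TPM put the median of all genes at 0.087.

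Some members changed sign under an alternative, none of them called in either fit, and their reported log2 fold changes reached 0.49 (Angpt2). Rescaling to TPM gave 0.051 for Cldn5, 0.023 for Vwf, 0.0091 for Rasip1, 0.023 for Nos3, 0.025 for Sox18 and 0.081 for Apln. With voom Cldn5 was at 0.010, Vwf at 0.0050 and Apln at 0.050, and median centring put Apln at 0.0050. Leaving out a sample gave -0.11 to 0.11 for Cldn5, -0.028 to 0.22 for Icam2, -0.12 to 0.86 for Emcn, -0.14 to 0.31 for Cd34, -0.18 to 0.042 for Vwf, -0.055 to 0.31 for Robo4 and -0.13 to 0.015 for Rasip1. It gave -0.17 to 0.071 for Nos3, -0.0025 to 0.44 for Erg, -0.057 to 0.56 for Sox7, -0.23 to 0.19 for Sox18, -0.19 to 0.11 for Apln, -0.15 to 0.10 for Aplnr, -0.65 to 0.11 for Dll4, -0.13 to 0.87 for Angpt2 and -0.29 to 0.057 for Gpihbp1. Each omission of a single sample kept the sample of the same number in the other group. The cause of these changes was not tested. Depth limits the lowest genes, such as Gpihbp1 with 31 reads in 1 sample.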
